A study of Mus musculus with 2 samples.

Results

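The 10 genes described here, Fos, Fosb, Fosl2, Jun, Junb, Jund, Egr1, Egr3, Nr4a1 and Ier2, are immediate early genes, and they were taken by symbol from a table of 45578 genes. All 10 were in the table. The table counts ribosome-protected fragments (footprints) from the polysomes of whole mouse brain at postnatal day 5, in 1 group of 2 biological replicates. Both brains came from mice of the Taiwanese line, FVB in background, whose genotype is given as Smn+/-; SMN2tg/0. The labels call them controls, although both carried 1 disrupted copy of mouse Smn and a hemizygous human SMN2 transgene. No other genotype, age or treatment was analysed here, so the comparisons below are between genes and between the 2 replicates. The libraries held 1866831 and 5261878 footprints, so replicate 2 was 2.82 times deeper. The labels name no stimulus, and the brains were snap-frozen after an overdose of anaesthetic. The sex of the animals is not in the labels.

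Immediate early genes are transcribed within minutes of a stimulus because the factors that switch them on are already in the cell and only need to be activated. Kinase cascades reach the serum response factor with its Elk partners and the cAMP-responsive factor CREB, and the transcripts that follow are short-lived. Most of the proteins are transcription factors: Fos and Jun proteins pair through leucine zippers to form AP-1, Egr proteins bind DNA with zinc fingers, and Nr4a1 is an orphan nuclear receptor. In brain, these genes are widely used as markers of neuronal activity, while glia and vessel cells also express several of them.

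The start regions of 7 members were listed in RefSeq (build GRCm38.p6): Fos, Fosb, Fosl2, Jun, Junb, Jund and Nr4a1. The 100 bases before the annotated start are shown for 4 of them. Those of Fos, Fosb and Nr4a1 hold the core of the CREB site, and those of Jun hold TGACNTCA without that core. Capitals mark TGACG or its reverse complement CGTCA (the core of the CRE, the site of CREB), TGACNTCA in Jun and TATAAA (the TATA box) in Fos.
Fos, chr12:85473790-85473889, plus strand: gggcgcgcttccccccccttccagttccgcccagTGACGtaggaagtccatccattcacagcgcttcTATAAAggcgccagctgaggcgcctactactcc
Fosb, chr7:19310046-19310145, minus strand: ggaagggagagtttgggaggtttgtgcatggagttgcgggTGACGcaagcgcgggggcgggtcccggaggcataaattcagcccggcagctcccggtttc
Jun, chr4:95052223-95052322, minus strand: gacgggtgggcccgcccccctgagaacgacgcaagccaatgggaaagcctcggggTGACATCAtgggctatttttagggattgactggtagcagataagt
Nr4a1, chr15:101266746-101266845, plus strand: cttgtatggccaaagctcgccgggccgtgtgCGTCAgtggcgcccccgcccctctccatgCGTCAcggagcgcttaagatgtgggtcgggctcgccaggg
Each sequence reads 5′ to 3′ on the strand of its gene. In the 250 bases before the start, searched on both strands, TGACG was found in 4 of 7 members (Fos, Fosb, Junb and Nr4a1) and in 17.9% of the 27025 genes with a listed start. Nr4a1 held 4 copies, at 233, 213, 69 and 40 bases before its start, and Fos held 2, at 129 and 66 bases. The longer TGACNTCA was found in Jun alone, 45 bases before its start, against 7.59% of all genes. The zinc finger site GCGNGGGCG of Egr proteins was found in Fosb, Fosl2 and Nr4a1, against 4.65% of all genes. The TATAAA box of Fos began 33 bases before its start, and such a box was found in 13.0% of all genes. The full site TGACGTCA, which contains that core, the AP-1 site TGANTCA and the CArG box of serum response factor were found in none of the 7 windows. They were found in 1.62%, 6.87% and 1.40% of all genes. Sequence farther from the start was not searched, so a site there would be missed. Egr1, Egr3 and Ier2 had no listed start region. A match describes these letters only, since footprint counts do not measure transcription.

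Together the 10 genes held 772 footprints in replicate 1 and 1640 in replicate 2. Their summed level was 414 CPM in the first library (counts per 1000000 footprints; Clopper-Pearson 95% bounds of 385 and 444) and 312 CPM in the second (297 to 327), on average 363 ± 72.0 CPM (SD, n = 2). The intervals did not overlap, and replicate 1 was higher. In whole brain, fewer cells of a type and fewer footprints per cell cannot be told apart. Intervals cover counting error only, not the spread between animals. They are too narrow where PCR copies were counted, since these are not independent molecules. Jun and Jund alone supplied 49.6% of the members' footprints in replicate 1 (interval 46.0 to 53.2) and 49.6% in replicate 2 (47.1 to 52.0).

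Levels of different genes were compared per length, as CPM per kilobase of transcript summed over a gene's annotated transcripts (footprint density). Jund had the highest density, at 38.5 and 28.9 CPM per kb in replicates 1 and 2 (33.7 ± 6.79, SD, n = 2), followed by Jun at 29.6 and 22.3 (26.0 ± 5.10). The replicate ranges of this pair overlapped. Per kb of transcript, Jund exceeded Jun within each brain by a like factor, 1.30 in replicate 1 (counting interval 1.06 to 1.60) and 1.29 in replicate 2 (1.12 to 1.49). Per 100 codons the footprints were closer, 60.5 for Jund and 52.5 for Jun in replicate 1, and 128 and 112 in replicate 2. No interval was computed for that measure. The next gene by CPM per kb, Fosl2, lay below Jun with no overlap, at 17.8 and 14.3. Egr1 at 16.3 and 12.2 and Junb at 18.05 and 10.02 had replicate ranges that overlapped each other and that of Fosl2. Within each brain Fosl2 was above Egr1, while the order of Egr1 and Junb differed between the brains.

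The lower part of the order held Ier2, Egr3, Fos, Nr4a1 and Fosb. Ier2 had 10.2 and 10.7 CPM per kb in replicates 1 and 2, Egr3 10.6 and 9.13, and Fos 9.03 and 10.3. The ranges of these 3 genes overlapped, but for Fos this rested on its non-coding transcripts: with coding transcripts alone the means were 3.899 for Fos, 13.05 for Egr3 and 13.9 for Ier2. Nr4a1 lay below them without overlap, at 4.98 and 2.84, although it stood above Fos once the non-coding transcripts of Fos were left out. Fosb was last, at 0.428 and 0.203. Among the 13317 tested genes with a coding transcript, whose median density was 16.8 CPM per kb, Jund stood at percentile 68.6 and Jun at 62.1. The other 7 tested members stood below the median, from percentile 48.9 for Fosl2 to 15.6 for Nr4a1. These percentiles use densities summed over all annotated transcripts, of which tested coding genes had a median of 4, while 7 members had 1. No percentile was computed under another measure of length. Jund and Jun were the highest, and Fosb the lowest, under every measure of length tried; Fosl2 came next after Jun when each count was divided by its own transcript's length or by the coding length (16.1 CPM per kb in the first case). It came behind Egr3 over its longest coding transcript (8.07), on coding transcripts alone (5.60) and on its highest transcript (8.25).

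**Figure D1:**
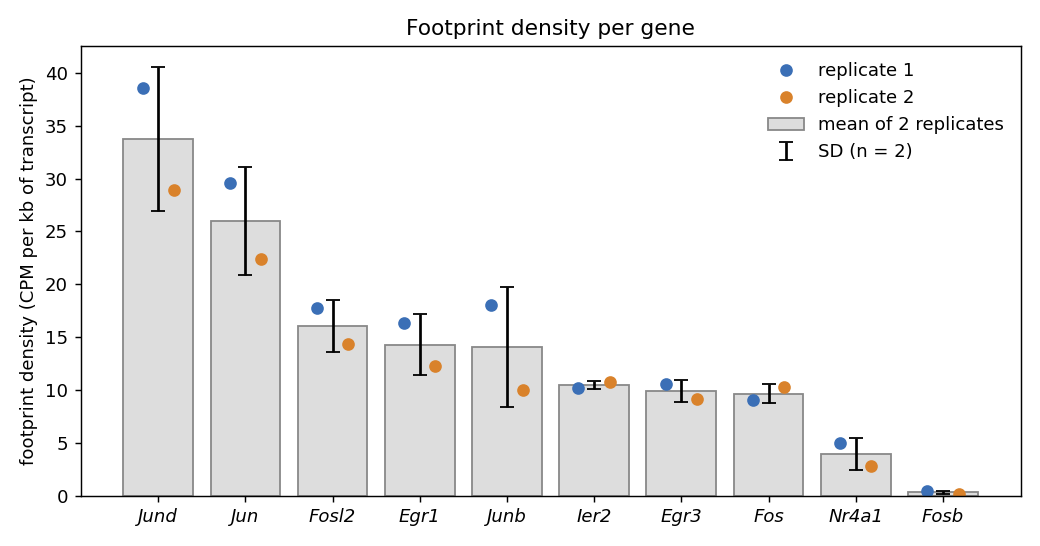
Footprint density of the 10 genes in CPM per kb of transcript: grey bars are the mean of 2 replicates, black lines the SD, and coloured points the single replicates. Jund and Jun stand highest, at 33.7 and 26.0, and Fosb lowest, at 0.316.

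The Jun family encodes the AP-1 subunits that can bind DNA as dimers with themselves or with Fos proteins. Jund (ENSMUSG00000071076), the member usually expressed without a stimulus, gave 207 footprints in the first library and 438 in the second. They amount to 111 CPM (95% interval 96.3 to 127) and 83.2 CPM (75.6 to 91.4). Jun (ENSMUSG00000052684), the founding AP-1 subunit, had 176 and 375 footprints, at 94.3 CPM (80.9 to 109) and 71.3 CPM (64.2 to 78.9). Both genes were higher in replicate 1, with intervals that did not overlap. Junb (ENSMUSG00000052837), a weaker activator that can restrain Jun, had 62 and 97 footprints, at 33.2 CPM (25.5 to 42.6) and 18.4 CPM (14.9 to 22.5). Junb was also higher in replicate 1 without overlap, and it was the gene with the widest relative gap among the 9 tested.

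The Fos family encodes partners that bind DNA only together with a Jun protein. Fosl2 (ENSMUSG00000029135), whose product Fra-2 is a later and longer-lived member, had 111 footprints in replicate 1 and 242 in replicate 2, or 59.5 CPM (95% interval 48.9 to 71.6) and 46.0 CPM (40.4 to 52.2). Fos (ENSMUSG00000021250), the most used activity marker of the group, had 22 and 57 footprints, or 11.8 CPM (7.39 to 17.8) and 10.8 CPM (8.20 to 14.0). The intervals overlapped for both genes. Fosb (ENSMUSG00000003545) had 3 footprints in replicate 1 and 4 in replicate 2, too few for a fold or a test; its levels of 1.61 and 0.760 CPM stand beside floors of 1.61 and 0.570 CPM, which 3 counts amount to. The table held 1 Fosb transcript, so the shorter ΔFosB form, which a spliced transcript of the gene encodes, was not separated. The summed density of the Jun family was 3.16 times that of the Fos family in replicate 1 and 2.47 times in replicate 2. With coding transcripts alone the ratio was 10.1 in replicate 1 and 9.43 in replicate 2.

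Egr1 (ENSMUSG00000038418), a zinc finger factor also called Zif268, had 111 footprints in replicate 1 and 236 in replicate 2, or 59.5 CPM (95% interval 48.9 to 71.6) and 44.9 CPM (39.3 to 51.0). Egr3 (ENSMUSG00000033730), its paralog, had 28 and 68 footprints, or 15.0 CPM (9.97 to 21.7) and 12.9 CPM (10.04 to 16.4). With its transcripts summed, Egr1 was higher per kb than Egr3 in both brains, by 1.54 and 1.34 times. Over the longest coding transcript the means were 11.6 CPM per kb for Egr1 and 9.86 for Egr3. Over the longest coding sequence they were 32.56 for Egr1 and 11.99 for Egr3, and on coding transcripts alone 18.88 and 13.05. On the highest transcript of each gene the order was reversed, at 11.8 for Egr1 and 19.2 for Egr3. That measure kept 1 of the 2 coding transcripts of Egr1, with 57 of 111 footprints in replicate 1 and 126 of 236 in replicate 2. Nr4a1 (ENSMUSG00000023034), which encodes Nur77, had 23 and 37 footprints, or 12.3 CPM (7.81 to 18.5) and 7.03 CPM (4.95 to 9.69). Ier2 (ENSMUSG00000053560), a small nuclear protein, had 29 and 86 footprints, or 15.5 CPM (10.4 to 22.3) and 16.3 CPM (13.1 to 20.2). The intervals of all 4 genes overlapped between the replicates, and Ier2 was the only one of the 10 members whose CPM was not higher in replicate 1.

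**Figure D2:**
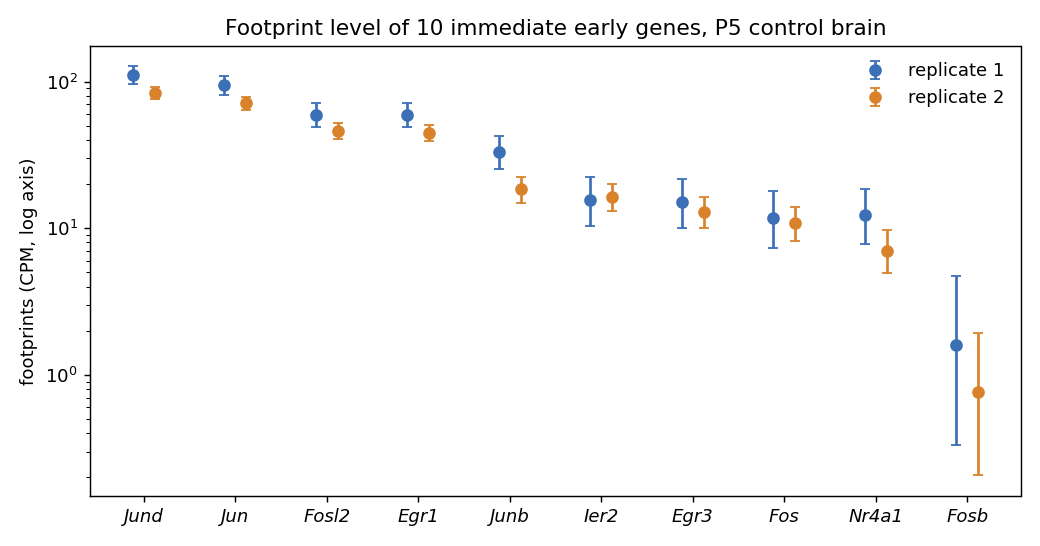
Footprint level of each gene in CPM on a log axis, with Clopper-Pearson 95% intervals for counting error, in replicate 1 (blue) and replicate 2 (orange). The intervals of Jund, Jun and Junb do not overlap between the replicates, and those of Fosb span the widest range.

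The members had few annotated transcripts and short coding sequences, but not uniformly short transcripts. Of the 10, 7 had 1 annotated transcript, against 25.6% of the 13317 tested coding genes, whose median number was 4. Their transcripts, counting the longest coding one of each gene, had a median of 2676 nucleotides against 3007 for tested coding genes, and 4 of 10 were above it. Their coding sequences had a median of 1030.5 nucleotides, against 1413 for tested coding genes, and ran from 666 in Ier2 to 1806 in Nr4a1. Their 5′ untranslated regions were longer than the overall median of 170 nucleotides in 6 of 10, reaching 1319 in Jund and 1666 in Egr1. The coding share of the transcript ranged from 15.0% in Fosl2 to 82.2% in Egr3. The Egr3 transcript was annotated with a 5′ untranslated region of 0 nucleotides and a 3′ one of 252, so its share and density rest on that annotation. Counts belong to whole transcripts, so footprints on coding and untranslated sequence could not be separated.

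Egr1, Fosl2 and Fos had several transcripts. The Egr1 transcripts Egr1-001 and Egr1-201 share a coding length of 1602 nucleotides and differ mainly in the 5′ untranslated region. They held 57 and 54 footprints in replicate 1 and 126 and 110 in replicate 2, so each took about an equal share in both brains. Fosl2 had 1 coding transcript, Fosl2-001, with 55 and 136 footprints, and a pair of retained-intron transcripts. These took 50.5% of the gene's footprints in replicate 1 (95% interval 40.8 to 60.1) and 43.8% in replicate 2 (37.5 to 50.3). One of them, Fosl2-002, took 24.3% (16.7 to 33.4) and 10.3% (6.80 to 14.9), with 27 and 25 footprints, and these intervals did not overlap. Fos had 1 coding transcript with 14 and 26 footprints, and its 3 processed transcripts took 36.4% (17.2 to 59.3) and 54.4% (40.7 to 67.6). Non-coding transcripts of a gene can share exons with the coding one, and how shared fragments were assigned is not given in the sources used here.

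**Figure D3:**
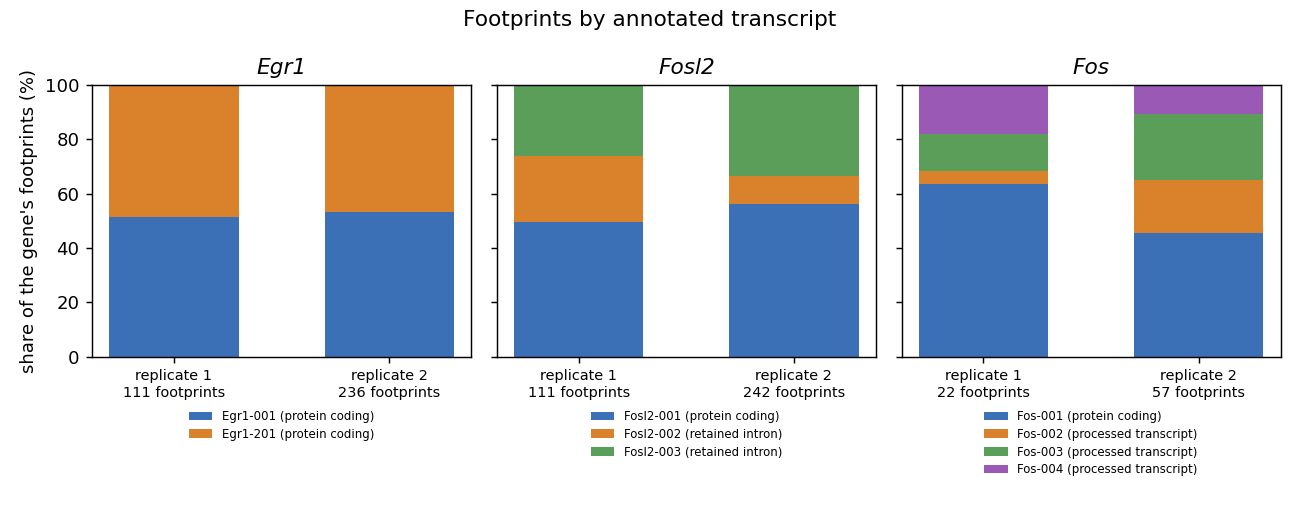
Share of each gene's footprints, in percent, on each annotated transcript of Egr1, Fosl2 and Fos in replicates 1 and 2, with the biotype in the legend. The Egr1 transcripts are near equal in both bars, while Fosl2-002 goes from 24.3% to 10.3%.

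Each gene's pair of counts was compared between the replicates by an exact binomial test (two-sided) with TMM scaling (trimmed mean of M values). Benjamini-Hochberg adjustment ran over the 16427 genes whose counts averaged 10 or more. The test compares 2 libraries and covers counting error alone. Of the 10 members, 9 reached the count minimum and Fosb, with a mean of 3.5, did not. The test called 5 of the 9, Jund, Jun, Junb, Egr1 and Fosl2, all lower in replicate 2, against 17.4% of all tested genes called in either direction, 11.5% lower and 5.95% higher. The log2 ratio of replicate 2 over replicate 1 was below 0 for 9 of 9 members, against 49.5% of all tested genes. Its median was -0.53 for the members and 0.01 for all tested genes. The scaling counts here, since TMM shifted log2 ratios by -0.13 relative to plain library totals. With library totals 19.0% of all genes were called, 1227 lower (7.47%) and 1896 higher (11.5%), in place of 1883 and 978. The members' median was then -0.40, 8 of 9 were below 0, against 38.1% of all genes, and the called members were Jund, Jun and Junb.

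Junb had the lowest log2 ratio, -0.96 (95% interval -1.45 to -0.49), a level 1.94 times higher in replicate 1, and passed the exact binomial test (adjusted p = 0.000856). Jund had a log2 ratio of -0.54 (-0.78 to -0.29), and passed the same exact test (adjusted p = 0.000259). Jun stood beside it at -0.53 (-0.79 to -0.26; exact adjusted p = 0.00117). Egr1 had -0.53 (-0.86 to -0.19; exact adjusted p = 0.0140) and Fosl2 -0.49 (-0.83 to -0.16; exact adjusted p = 0.0247). The called members were therefore 1.41 to 1.94 times higher in replicate 1. When coding transcripts alone were counted, Fosl2 was no longer called, at -0.28 (exact adjusted p = 0.450; 0.0148 to 0.673 over the alternatives of the binomial test and 1 in edgeR's exact test).

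The other 4 tested members did not pass. Nr4a1 had a log2 ratio of -0.89 (95% interval -1.72 to -0.12), a value near that of Junb from 23 and 37 footprints, and exact p-values of 0.0163 before and 0.0797 after adjustment. Egr3 had -0.33 (-0.996 to 0.35), Fos -0.24 (-0.98 to 0.53) and Ier2 -0.05 (-0.68 to 0.61), with exact adjusted p-values of 0.551, 0.758 and 0.951. Their intervals include both 0 and the values of Jund and Jun, so at 28 to 86 footprints for Egr3 and Ier2, and 22 and 57 for Fos, a difference of that size was not detectable. edgeR's exact test, which adds the spread estimated between the same 2 libraries (a coefficient of variation of 0.166), called 0 of 9 members and 11 of all 16427 genes. At an unadjusted p under 0.05 this exact test found 1 member, Junb (p = 0.0245), and 721 genes in all. Differences between these libraries over all genes set the spread it uses, so few calls follow from the design. Its result therefore cannot decide whether a member differed.

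**Figure D4:**
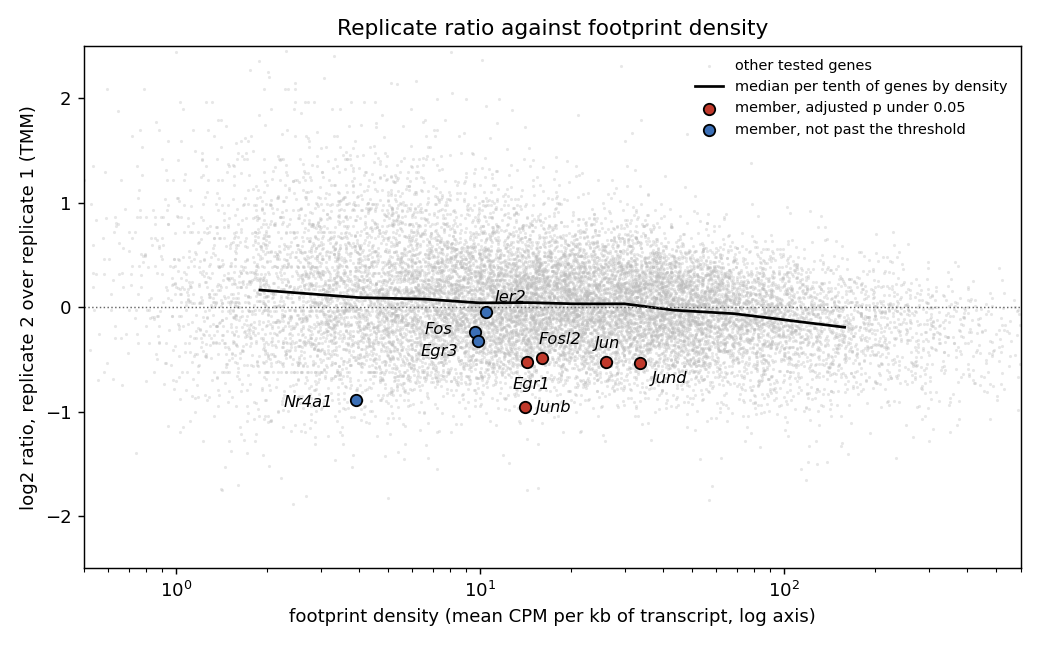
Log2 ratio of replicate 2 over replicate 1 (TMM) against mean footprint density in CPM per kb on a log axis: grey points are tested genes, of which 122 lie outside the axes, and the black line joins the medians of 10 equal bins of genes by density. All 9 tested members lie below the line, and the 5 in red passed the test.

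Across all tested genes the log2 ratio varied with density and with the number of annotated transcripts. When genes were divided into 10 equal bins by density, the members fell in bins 2 to 7, where the medians lay between 0.09 and 0.03 and 2.31% to 10.8% of genes were called lower. All 9 tested members were below the median of their own bin, and the differences ran from -0.999 for Junb to -0.0919 for Ier2. Removing the trend with density left the same 5 genes called, against 17.2% of all genes called in either direction and 9.59% lower.

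Transcript number was compared after the values had been seen. Coding genes with 1 annotated transcript had a median log2 ratio of -0.28, and 25.6% of these 3412 genes were called lower. With 2 to 3 transcripts the median was -0.07, with 14.6% called lower, and with 4 or more it was 0.13, with 5.92%. Of the 6 tested members with 1 transcript, 3 were called lower. Of the 3 with several, Egr1 and Fosl2 were called lower and Fos, with 4 transcripts, was not. Below their own class's median lay 8 of 9 members, the exception being Ier2, at 0.23 above, and the members' median difference from it was -0.37. When each gene was tested against the median ratio of its class, 1 of 9 members was called, Junb (log2 difference -0.67, exact adjusted p = 0.0325), against 12.8% of all genes called in either direction and 9.29% lower. Over the alternatives of the binomial test, the adjusted p of Junb ranged from 0.000577 to 0.0325, and ranges for the other 4 follow each value below; in edgeR's exact test the adjusted p of all 5 was 1. Jund was then at -0.25 (exact adjusted p = 0.169; 0.000176 to 0.169) and Jun at -0.24 (exact adjusted p = 0.247; 0.000676 to 0.247). Egr1 was at -0.46 (exact adjusted p = 0.0513; 0.00794 to 0.355) and Fosl2 at -0.42 (exact adjusted p = 0.0792; 0.0148 to 0.673).

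**Figure D5:**
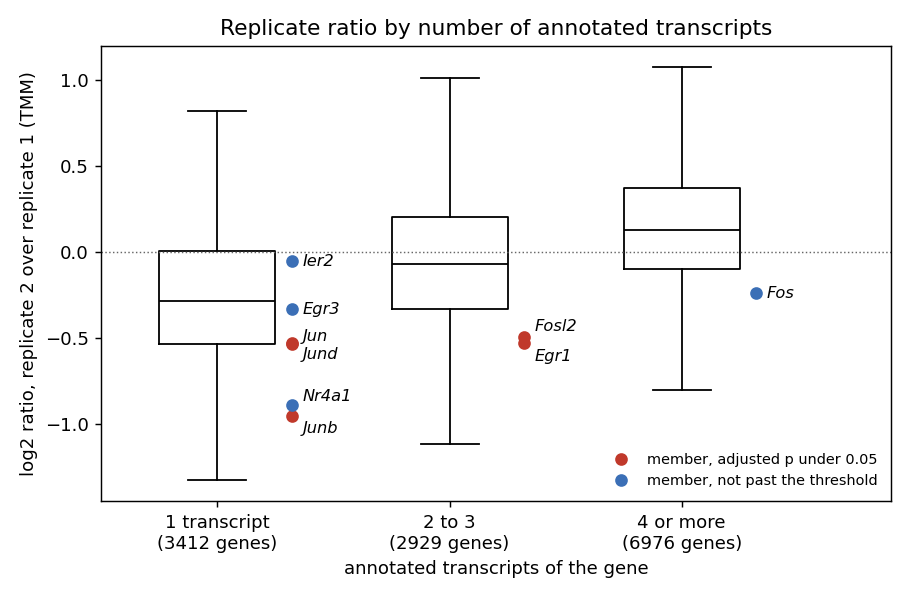
Log2 ratio of replicate 2 over replicate 1 (TMM) for coding genes with 1, 2 to 3 and 4 or more annotated transcripts: boxes show quartiles and median, whiskers reach the farthest gene within 1.5 box lengths, outliers are not drawn, and points are the 9 tested members. The box medians are -0.28, -0.07 and 0.13, and 6 members stand in the first class.

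Every marker gene of the 9 cell or region lists had footprints in both libraries except Gabra6, of mature cerebellar granule cells, which was at 0 in replicate 1. Neuronal markers summed to 8102 CPM in replicate 1 and 6442 in replicate 2, with 8 of 12 called lower. Forebrain markers summed to 1289 and 954 CPM, with 7 of 10 called lower, and cerebellar granule markers to 550 and 712 CPM, with 3 of 8 tested called higher. Red cell markers summed to 2488 and 1706 CPM, with 4 of 6 tested called lower. Astrocyte markers summed to 4657 and 4008 CPM, with 4 of 9 called lower. Oligodendrocyte markers summed to 1163 and 1375 CPM, with 4 of 10 called lower and 3 higher. Microglial markers summed to 369 and 367 CPM, with 2 of 10 called lower and 1 higher. Endothelial markers summed to 367 and 354 CPM, with 1 of 10 called lower, and meningeal markers to 1762 and 1635 CPM, with 4 of 8 lower and 1 higher. Of all tested genes, 11.5% were called lower and 5.95% higher, and in the densest of the 10 bins 42.4% were called lower. With the density trend removed, the median log2 ratio went from -0.45 to -0.18 for neuronal and -0.21 to 0.02 for astrocyte markers. It went from -0.64 to -0.19 for red cell markers, stayed at -0.39 for forebrain markers, and went from 0.47 to 0.45 for cerebellar granule markers. The marker lists were not compared by transcript number, with which the ratio also varied. The part of these markers in the members' difference was not tested.

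Other immediate early transcription factors were a list of 14 genes, of which 9 were tested. The test called 2 lower in replicate 2 and 0 higher, against 11.5% lower and 5.95% higher of all tested genes. The median log2 ratio was -0.26. Neither this list nor those below was compared by transcript number. Ier5, a nuclear protein related to Ier2, had 54.1 and 38.0 CPM and a log2 ratio of -0.63 (exact adjusted p = 0.00475). Maff, a small Maf protein, had 11 and 10 footprints and a log2 ratio of -1.52 (exact adjusted p = 0.0480). The paralogs of Nr4a1 stood above it: Nr4a2, a factor of dopamine neurons, had 29.8 and 37.5 CPM per kb, and Nr4a3 27.8 and 29.8, against 4.98 and 2.84 for Nr4a1. Neither was called, at log2 ratios of 0.17 and -0.12. Egr4 had 6.48 and 4.16 CPM per kb and Egr2, a hindbrain and Schwann cell factor, 1.32 and 2.22, both under Egr3 and Egr1. Fosl1 had no footprint in either library, which allows up to 1.61 and 0.570 CPM.

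Of 18 immediate early genes that encode effectors, 16 were tested, with a median log2 ratio of -0.12. The test called 3 lower and 1 higher, against 11.5% lower and 5.95% higher of all tested genes. Nptx2, a synaptic pentraxin, had 51.4 and 32.1 CPM (log2 ratio -0.80, exact adjusted p = 0.000349). Dusp6, a phosphatase of ERK kinases, had 62.1 and 48.5 CPM (-0.48, exact adjusted p = 0.0254). Plk2, a synaptic kinase and the most abundant of the list, had 191 and 155 CPM (-0.42, exact adjusted p = 0.000111). Bdnf, a neurotrophin, went the other way, with 24 footprints in replicate 1 and 137 in replicate 2, or 12.9 and 26.0 CPM (0.87, exact adjusted p = 0.0288).

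The 25 upstream regulators were all tested, with a median log2 ratio of -0.01. Of these, 3 were called lower and 4 higher, against 11.5% lower and 5.95% higher of all tested genes. Those lower were kinases of the signal path: Camk4, a calcium-dependent kinase that acts on CREB, at 202 and 152 CPM (log2 ratio -0.53, exact adjusted p = 2.48e-07), Map2k1 at -0.44 and Map2k2 at -0.32. Those higher included the factor Creb1, at 34.3 and 66.9 CPM (0.83, exact adjusted p = 0.000113), and its relative Crem, at 6.96 and 16.9 CPM (1.10, exact adjusted p = 0.0340). The kinase Rps6ka3 stood at 0.51 (exact adjusted p = 0.0229). Mef2c, a neuronal factor and the most abundant of the list, had 812 and 882 CPM and a log2 ratio of -0.01.

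Among partners and modifiers of AP-1, Egr and Nr4a proteins, more genes were called higher in replicate 2 than lower. Of 14 tested, 1 was lower and 5 higher, against 11.5% lower and 5.95% higher of all tested genes. A log2 ratio below 0 was seen for 7, against 49.5% of all tested genes, and the median was 0.03. Atf2, which can pair with Jun, had 80.4 and 154 CPM (log2 ratio 0.81, exact adjusted p = 9.55e-10). The Jun kinase genes Mapk9, at 126 and 201 CPM, and Mapk8, at 144 and 208 CPM, stood at 0.55 and 0.40, and Fbxw7, a ubiquitin ligase subunit that targets Jun, at 0.42. Maf, a bZIP factor, was lower at -0.40 (exact adjusted p = 0.0176).

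Proteins that bind AU-rich elements, through which many immediate early transcripts are destabilised or stabilised, divided by member. Of 8 tested, 3 were called lower and 2 higher, against 11.5% lower and 5.95% higher of all tested genes. The median log2 ratio was -0.07. Zfp36l2, which promotes decay, had 45.0 and 27.4 CPM (log2 ratio -0.83), and the decay factor Khsrp 193 and 153 CPM (-0.46). The neuronal stabilisers went both ways, Elavl3 at -0.66 and Elavl2 and Elavl4 at 0.47 and 0.30. Hnrnpd was the most abundant, at 469 and 502 CPM. With library totals the medians of the effector, upstream and AU-rich lists became 0.01, 0.11 and 0.05, while the called genes named in these lists kept their sign.

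By level in both libraries, the 3 tested genes nearest to Jund were RP23-27H19.7, Eif1b, an initiation factor paralog, and Crim1, a membrane protein of growth factor signalling. They had 110.3 and 82.9, 110.3 and 82.7, and 112 and 83.2 CPM in replicates 1 and 2, at distances of 0.0096, 0.012 and 0.021 on the log2 scale. The likeness rests on 2 samples.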

How the data were processed

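Per the labels' protocols, polysomes of frozen brains were pooled from sucrose gradients and digested with RNase I, and fragments of 25 to 35 nucleotides were sequenced. The submitters' processing notes name Trimmomatic 0.36, Bowtie2 2.2.6, SAMtools and the build GRCm38.p4, without roles. The authors deposited whole-number counts per transcript, not normalized, 1 column per replicate, with annotated lengths; the treatment of strand, duplicates and multiply matching fragments is not given in the sources used here.

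The symbol was the transcript name without its trailing number, and counts were summed per Ensembl gene. TMM factors came from edgeR 4.0.16 on genes whose counts averaged 10 or more. Log2 ratios used a prior of 0.5 CPM, and printed CPM values use library totals. Intervals on ratios are exact binomial, without the prior. Calls used an adjusted p under 0.05. Alternatives covered scaling (DESeq2 1.42.0), filters, priors, transcripts, lengths, trends and edgeR's exact test. The exact test was also run on simulated counts with counting error only and without TMM scaling. Spread between animals was absent there, so that run cannot decide how reliable the calls are. No quasi-likelihood test could be fitted, because 1 group has no contrast. The members and lists were chosen with earlier results of these data known. Named genes were all members, the called genes of each list with the largest ratios (up to 3 per direction), each list's most abundant gene, and the 3 genes nearest to Jund; the Nr4a and Egr paralogs and Fosl1 were added after their values were seen. Start regions are RefSeq's, of GRCm38.p6.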

Additional observations from a re-analysis of the deposited data

How the results depend on the processing

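Against 5 calls, library totals and the highest transcript per gene each gave 3 (Jund, Jun and Junb), removal of the median of genes with like transcript number, which was chosen after the data were seen, gave 1 (Junb; 12.8% of all genes were called), and edgeR's exact test gave 0 (1 at an unadjusted p under 0.05). DESeq2 size factors, no count filter (10 members tested), a minimum of 50 (6 tested) and removal of the density trend gave the same 5. Coding transcripts alone gave 4 of them. Of all genes, these settings called 17.4%, 9.93%, 26.8%, 17.2% and 18.2%, in that order. The shares called lower were 11.6%, 6.69%, 17.5%, 9.59% and 11.7%. Over all genes the highest transcript called 1445 of 15353 and edgeR's exact test 11 of 16427, against 2861 of 16427. The edgeR test takes its spread from the same 2 libraries it compares, so its few calls follow from the design. The members' median log2 ratio of -0.53 stayed below 0 in every setting, from -0.55 without the density trend to -0.37 against like transcript number. Ier2 changed sign, to 0.0711 with library totals, 0.0204 with the highest transcript and 0.23 against like transcript number; it was called in none.

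The summed level of 363 CPM was 440 CPM on coding transcripts alone and 598 CPM on the highest transcripts, whose totals are smaller; without 1 replicate it was 312 to 414 CPM. The members' median density of 12.3 CPM per kb was 24.4 over coding sequence, 15.5 on the highest transcript, and 10.5 to 13.5 without 1 replicate. No paired analysis was possible because the design has 1 group. Depth limits Fosb most, with 3 and 4 footprints. No outlier test was run, since a group of 2 allows none.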

Other observations

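The median replicate ratio varied little with the base composition of the start region, a measure examined after the data were seen. RefSeq start regions matched 10112 of the 16427 tested genes (61.6%), under the 80% needed for a check over all genes, so these values describe the matched genes only. In 5 bins of these genes (1969 to 2097 each) by GC content of the start region, the median log2 ratio was 0.06 in the lowest bin (median GC 49.7%) and -0.01 in the highest (73.3%). The 6 tested members with a listed start region had GC contents from 46.7% for Jund to 72.3% for Nr4a1, and all 6 lay below the median ratio of their own bin. Their median difference from it was -0.56. The GC content of the transcripts themselves was not examined.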
